A study of Sus scrofa with 12 samples.

Results

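DNA replication and repair genes were followed in pig (Sus scrofa) embryos through the blastocyst transition. The genes were chosen by symbol alone: the MCM, RFC, ORC, RAD, XRCC, ERCC, MSH, MLH and FANC families, subunits of DNA polymerases alpha, delta and epsilon, ligases 1, 3 and 4, the 3 RPA subunits and PCNA. The choice gave 61 of the 12627 genes named on either of 2 microarray designs. Of these, 55 were on the first array set, 17 on the second and 11 on both. Genes of the ORC and MLH families were not analysed here, and neither were LIG3, RPA3 and POLE. Hatched blastocysts, which have left the zona pellucida and were collected in vivo 5.5 days after insemination, were hybridised directly against early blastocysts collected in vivo at 5 days. Each design was used for 6 arrays, 3 with hatched blastocyst RNA in Cy5 and early blastocyst RNA in Cy3, and 3 the other way round. The labels name no breed, litter or number of embryos per extract, so a p-value here covers only array-to-array spread, part or all of which may be technical.

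Each deposited value is 1 log ratio between the stages, taken here as log2. The labels do not say which stage is the numerator. Genes are therefore placed on its positive or negative side, and no stage is called higher. A ratio holds no level, so whether a gene was expressed at all, and whether defining markers of the blastocyst were present or absent, could not be read from these values. In whole embryos, fewer cells of a type and less RNA per cell cannot be told apart.

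Replication starts where the origin recognition complex loads the MCM helicase. Polymerase alpha primes each strand, polymerase epsilon extends the leading strand and polymerase delta the lagging strand, while replication factor C (RFC) loads the sliding clamp PCNA, RPA coats single strands and ligase 1 seals the fragments of the lagging strand. The Fanconi anemia proteins act on crosslinks between strands, RAD proteins on recombination and checkpoints, XRCC1 and the Ku proteins XRCC5 and XRCC6 on strand breaks, ERCC proteins on bulky lesions, and MSH proteins on mismatches. Cells of the blastocyst divide quickly, and both the inner cell mass and the trophectoderm replicate their DNA while it forms.

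On the first array set 8 of 55 genes passed the test, 7 on the negative and 1 on the positive side (limma adjusted p under 0.05). Of all 11913 genes on this array set 4.75% passed, 2.38% on either side. The negative genes were POLD3, FANCL, RFC5, POLE2, LIG1, POLE3 and FANCB, and the positive gene was FANCF. In all, 8 genes were negative on all 6 arrays and 2 were positive on all 6, where 5.03% and 4.21% of all genes were. The median log2 ratio of the 55 genes was -0.04, against 0.0027 for all genes, with 33 members below 0 and 22 above. A ratio of at least 0.5 in size was held by 23.6% of the members, against 5.55% of all genes. An unadjusted p under 0.05 was reached by 20 of the 55 genes, against 17.1% of all genes. The test takes the 6 arrays as independent, although residuals correlated within 3 pairs, which were matched by that correlation. With the pairs as a random block 8 members passed (3.79% of all genes did), and with the slide as a fixed block 4 (2.09%). On the 3 pair averages no member and no other gene passed, and 15 members had an unadjusted p under 0.05 in limma. With 1 array left out, 4 members passed without replicate 1 of hatched in Cy5 and 5 without its replicate 3. Without replicate 2 of early in Cy5 3 passed, and without its replicate 3 4 did. Of all genes 1.96%, 2.17%, 1.65% and 1.92% passed, in the same order. If the deposited value were Cy5 over Cy3 on every array, 3 arrays would have to be turned in sign. Then no member would pass, against 0.991% of all genes, and 10 members had an unadjusted p under 0.05 in limma. For these alternatives the share of all genes at an unadjusted p under 0.05 was not counted.

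On the second array set 2 of 17 genes passed, RAD52 on the positive side and RAD51AP1 on the negative side. This share was near that of all 4531 genes, of which 11.0% passed (5.27% positive, 5.72% negative). Here 1 of the 17 genes was negative on all 6 arrays and 2 were positive on all 6, where 8.23% and 6.97% of all genes were. The median of the 17 genes was -0.05, against 0.0050 for all genes. An unadjusted p under 0.05 was reached by 7 of the 17, against 23.7% of all genes. With the pairs as a random block 2 members passed (8.23% of all genes did), and with the slide as a fixed block 1 (6.40%). On the 3 pair averages no member passed, against 0.0883% of all genes. There 5 members had an unadjusted p under 0.05 in limma, again without a count over all genes. Only 1 member passed on leaving out replicate 1 or 3 of hatched in Cy5 or replicate 2 or 3 of early in Cy5. Between 5.63% and 6.38% of all genes did in those fits. Without replicate 2 of hatched in Cy5 4 members passed, against 12.8% of all genes.

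**Figure D1:**
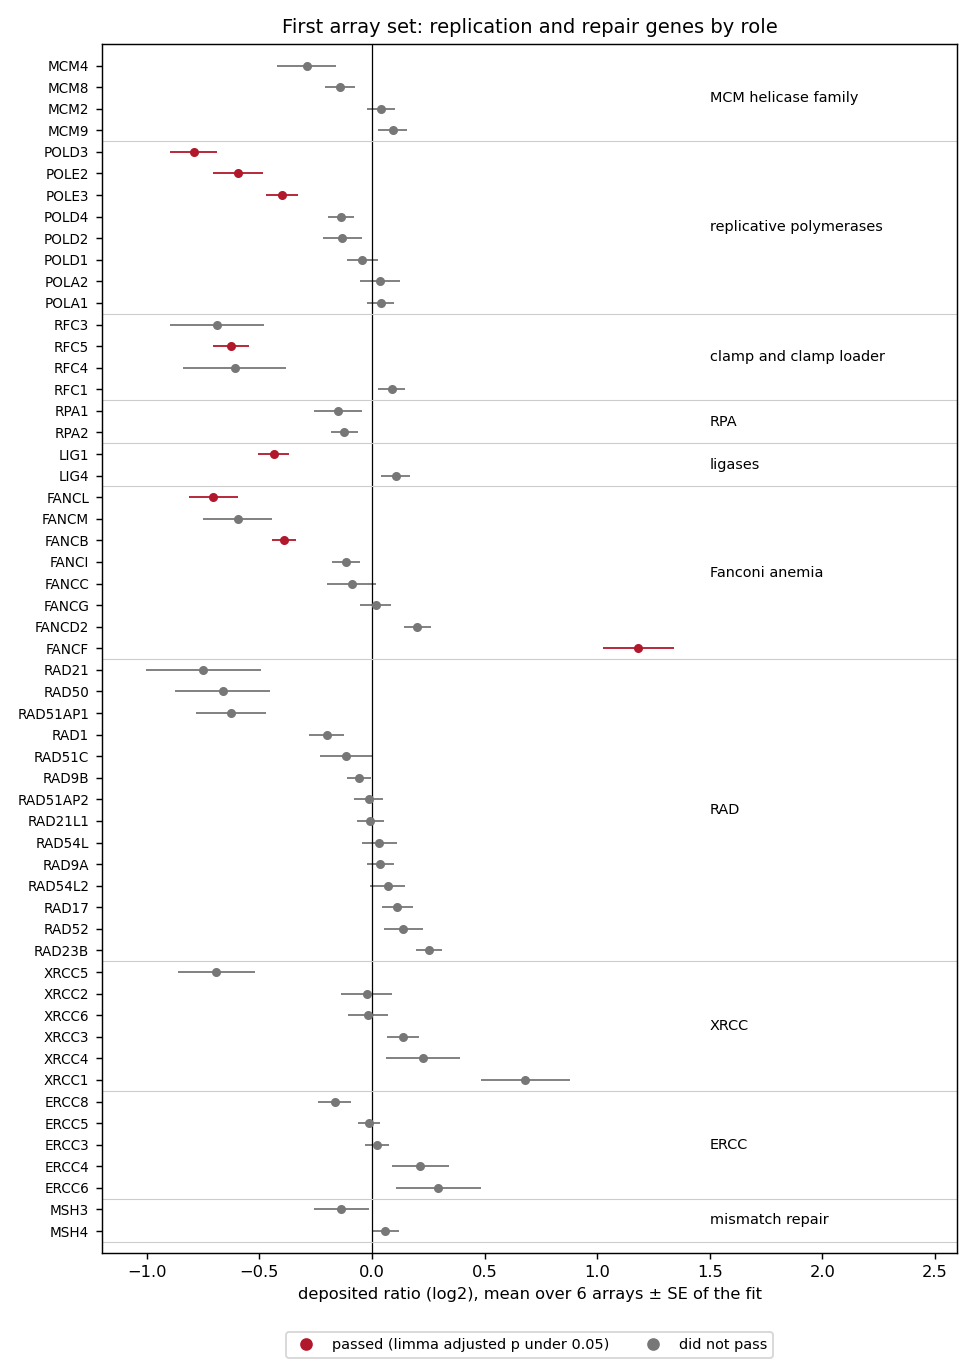
Log2 ratio of each of the 55 replication and repair genes on the first array set, grouped by role, with the standard error of the fit over 6 arrays as a horizontal bar; filled red points passed the test. Of the 8 genes that passed, FANCF at 1.18 is on the positive side and 7 lie between -0.79 and -0.39.

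In both array sets the 6 arrays were matched into 3 pairs, 1 array of each dye orientation. Of all possible matchings, the one with the largest summed correlation of residuals was kept. The pairs were thus chosen from these data. Within them the residuals correlated at r between 0.36 and 0.75 over all genes of a set, a value that the choice itself made large. The first pair joined replicate 1 of hatched in Cy5 and replicate 2 of early in Cy5, and the third the arrays numbered 3. The labels do not say what the arrays of a pair share. The second pair, made of replicate 2 of hatched in Cy5 and replicate 1 of early in Cy5, stood apart. On these 2 arrays of the first set the standard deviation over the 55 genes was 0.31 and 0.24, against 0.31 and 0.28 over all genes. On the other 4 arrays it was between 0.44 and 0.60 for the 55 genes and between 0.35 and 0.42 for all genes. On the first array set the replication and repair genes thus spread more widely than all genes on 4 arrays, but not on the second pair. On the second array set the second pair had 0.25 and 0.22 for the 17 genes and 0.31 and 0.34 for all genes. Its other 4 arrays lay between 0.41 and 0.59 for the 17 genes and between 0.39 and 0.49 for all genes. There hatched in Cy5 replicate 3 had 0.41 for both. Of the 20 genes with an unadjusted p under 0.05, 18 had a smaller mean ratio, disregarding sign, on the second pair than on the other 4 arrays. All 7 such genes of the second array set did. Over all genes this was not counted, so the counts of 18 and 7 have no background. The spread over all genes was also smaller on the second pair than on the other 4 arrays, in both array sets.

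**Figure D2:**
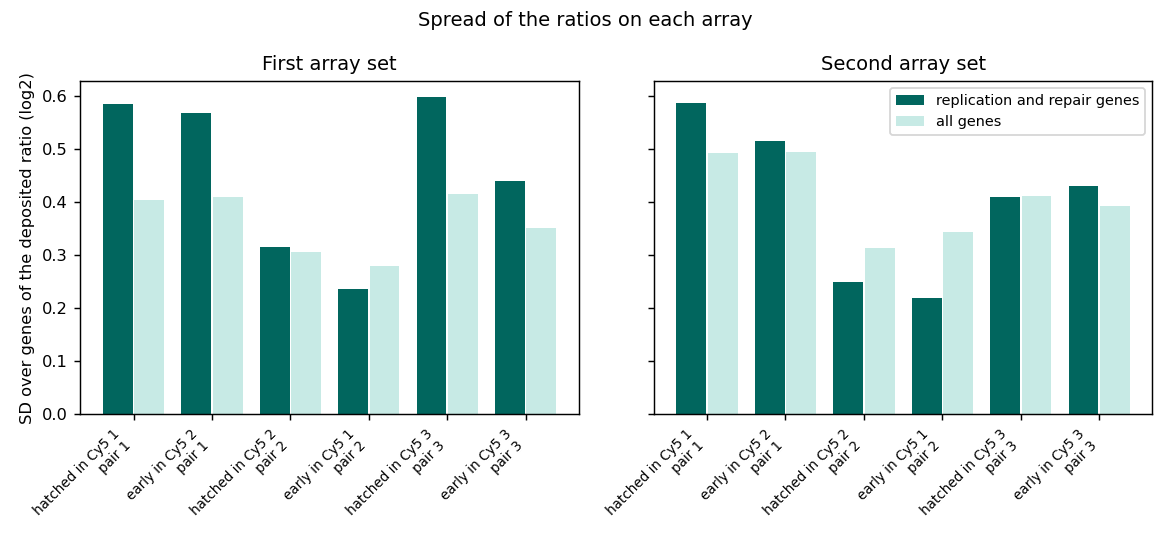
Standard deviation over genes of the log2 ratio on each array, for the replication and repair genes (dark bars) and for all genes (light bars), with arrays ordered by pair. Dark bars of the first array set reach 0.60, and those of the second pair stay at 0.31 and 0.24.

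Leaving out the second pair was an alternative chosen after the data were seen. Without it 16 of the 55 genes passed on the first array set, 14 on the negative and 2 on the positive side, against 9.79% of all genes. All 8 genes called with 6 arrays were among them. The 8 that were added were XRCC5 (-1.0), RFC4 (-1.0), RAD50 (-1.0), RFC3 (-0.99), RAD21 (-1.18), RAD51AP1 (-0.89) and MSH3 (-0.35) on the negative side and XRCC1 (1.03) on the positive side. Of the 17 genes on the second array set 5 passed without the second pair, against 17.3% of all genes. RAD18 (-0.75), PCNA (-0.42) and XRCC1 (0.79) were added there.

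Among the polymerase genes of the first array set 3 of 8 passed, all on the negative side, where 2.38% of all genes passed. POLD3, a subunit of polymerase delta, had log2 ratios of -0.73, -0.59 and -1.31 on the arrays with hatched in Cy5 (replicates 1 to 3) and of -0.57, -0.61 and -0.95 on those with early in Cy5. All 6 arrays were negative, and both arrays of the third pair were the lowest. The mean was -0.79 ± 0.10 (SE of the fit, n = 6 arrays; limma adjusted p = 0.00875).

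POLE2, the B subunit of polymerase epsilon, lay at -0.76, -0.06 and -0.73 with hatched in Cy5 and at -0.37, -0.84 and -0.81 with early in Cy5. The second pair was nearest to 0 and the other 4 arrays lay between -0.84 and -0.73. The mean was -0.59 ± 0.11 (limma adjusted p = 0.0304), and it rested on 3 probes of unequal size, at -1.03, -0.68 and -0.08, of which the first passed on its own. The call ended on leaving out any 1 array outside the second pair (the highest limma adjusted p, 0.128, came without replicate 3 of early in Cy5).

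POLE3, a histone-fold subunit of polymerase epsilon, had ratios of -0.42, -0.00099 and -0.28 with hatched in Cy5 and of -0.55, -0.70 and -0.45 with early in Cy5. The arrays with early in Cy5 were all more negative than those with hatched in Cy5. Its mean was -0.40 ± 0.07 (limma adjusted p = 0.0236), and the call ended on leaving out any 1 of 5 arrays, with the highest adjusted p, 0.106, without early in Cy5 replicate 2.

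The other polymerase genes did not pass. POLD4, a small subunit of polymerase delta, lay at -0.14 ± 0.06 (limma adjusted p = 0.288) and POLD2 at -0.13 ± 0.09. POLA1, the catalytic subunit of polymerase alpha, lay at 0.04 ± 0.06 and POLA2, its B subunit, at 0.04 ± 0.09. POLD1, the catalytic subunit of polymerase delta, lay at -0.04 ± 0.07, with a 95% confidence interval from -0.21 to 0.12. It followed the dyes: it was at -0.12, -0.35 and -0.60 with hatched in Cy5 and at 0.22, 0.32 and 0.28 with early in Cy5, and the dye term had the same sign for all 10 of its probes. That term had a limma adjusted p of 0.0688. No member's dye term passed on either array set, where 0.991% of all genes did on the first and 0% on the second by limma. Among single probes of the first array set it passed for POLD1, at -0.44 and -0.71 (limma adjusted p = 0.0404 and 0.0405). It also passed for a probe of RFC5, at -0.39 (0.0400). Over all probes the passing dye terms were not counted, so these probe calls have no background. An unadjusted p under 0.05 for the dye term was reached by 10 of the 55 and 3 of the 17 members in limma. The share of all genes at that unadjusted threshold was not counted, so these counts have no background.

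Clamp loader genes of the first array set lay together on the negative side, except for RFC1. RFC5, a small subunit of the loader, had ratios of -0.95, -0.51 and -0.84 with hatched in Cy5 and of -0.38, -0.69 and -0.39 with early in Cy5. It was negative on every array, with a mean of -0.63 ± 0.08 (limma adjusted p = 0.00779), and all 3 of its probes passed, at -0.83, -0.58 and -0.47. The probe at -0.47 also had a dye term of -0.39 that passed (limma adjusted p = 0.0400). RFC5 stayed called on leaving out any 1 array.

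RFC3, another small subunit, had -1.27, 0.05 and -0.52 with hatched in Cy5 and -0.22, -1.53 and -0.66 with early in Cy5, and its mean of -0.69 ± 0.21 did not pass (limma adjusted p = 0.132). RFC4 lay at -1.03, 0.39 and -0.98 with hatched in Cy5 and at -0.06, -1.37 and -0.61 with early in Cy5, with a mean of -0.61 ± 0.23 (limma adjusted p = 0.229). For both genes the first pair was the most negative and the second pair lay nearest to 0 or above it. RFC1, the large subunit, lay at 0.09 ± 0.06 (limma adjusted p = 0.531).

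PCNA, the clamp that RFC loads, was named on the second array set. It had ratios of -0.54, 0.05 and -0.42 with hatched in Cy5 and of -0.27, -0.41 and -0.32 with early in Cy5. The value of hatched in Cy5 replicate 2 was the only one above 0. The mean of -0.32 ± 0.09 did not pass (limma adjusted p = 0.0578, and 0.0155 without the second pair). Leaving out that pair was chosen after the data were seen, and 17.3% of all genes then passed.

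LIG1, which joins lagging-strand fragments, lay at -0.36, -0.69 and -0.31 with hatched in Cy5 and at -0.50, -0.47 and -0.29 with early in Cy5. Its mean was further from 0 on the second pair (-0.59) than on the other 4 arrays (-0.36), and it was the only one of the 8 genes that passed on this array set for which this held. The mean was -0.44 ± 0.07 (limma adjusted p = 0.0162), from 4 probes that ran from -0.89 to -0.03, 2 of which passed. The call ended without replicate 1 of hatched in Cy5, or without replicate 2 or 3 of early in Cy5 (highest limma adjusted p = 0.0750). LIG4, the ligase of end joining, lay at 0.11 ± 0.06 without passing. Neither RPA1 (-0.15 ± 0.11) nor RPA2 (-0.12 ± 0.06) passed.

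No MCM gene passed in limma on either array set, where 4.75% and 11.0% of all genes did. An unadjusted p under 0.05 was reached by 0 of 4 on the first and by both on the second, against 17.1% and 23.7% of all genes. MCM4, a subunit of the replicative helicase, lay furthest from 0 on the first array set, at -0.29 ± 0.13 (limma adjusted p = 0.320), and its 2 probes lay at -0.59 and 0.02. MCM2 lay at 0.04 ± 0.06 and MCM9 at 0.09 ± 0.06. On the second array set MCM3, another helicase subunit, lay at 0.25 ± 0.09 (limma adjusted p = 0.145). MCM8, a helicase of recombination, lay at -0.14 ± 0.07 on the first and at -0.18 ± 0.07 on the second array set (limma adjusted p = 0.358 and 0.177).

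**Figure D3:**
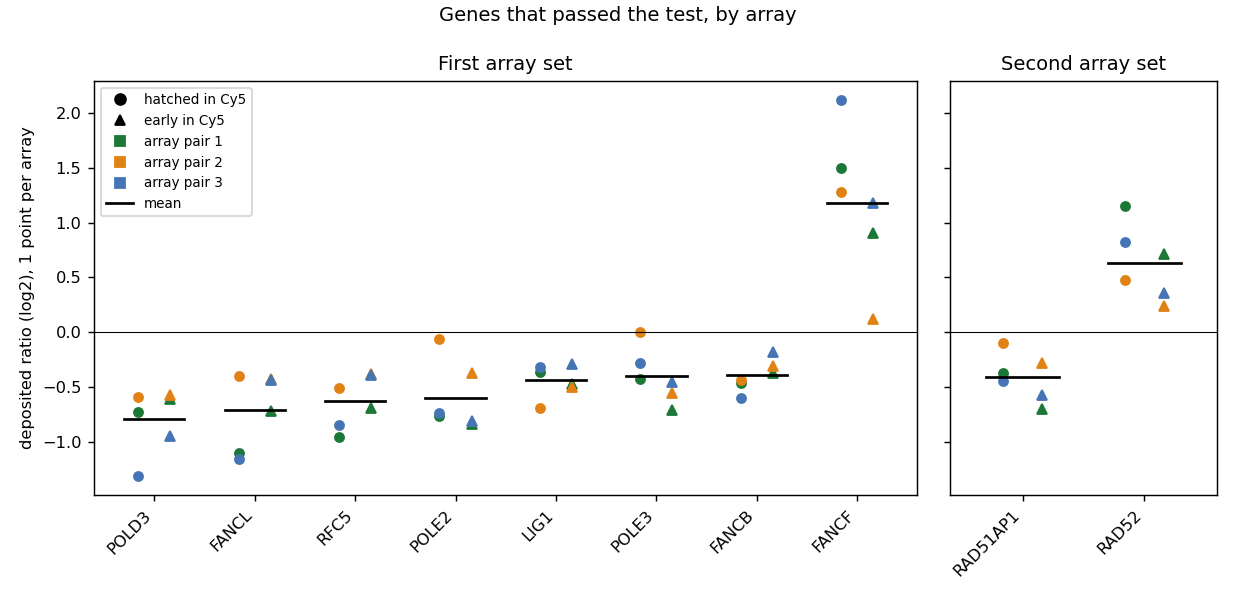
Log2 ratio on each array for the 8 genes that passed on the first array set and the 2 that passed on the second, with circles for hatched in Cy5, triangles for early in Cy5, colours for the 3 array pairs and a black line for the mean. Every gene's points lie on 1 side of 0, and for FANCF the values run from 0.12 to 2.12.

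The Fanconi anemia genes held the largest ratio of all members and lay on both sides. FANCF, an adaptor of the core complex, had ratios of 1.49, 1.28 and 2.12 with hatched in Cy5 and of 0.12, 0.91 and 1.18 with early in Cy5. Each array with hatched in Cy5 lay above all arrays with early in Cy5, and early in Cy5 replicate 1 lay close to 0. The mean was 1.18 ± 0.16 (limma adjusted p = 0.00926, from 1 probe), and FANCF was the only member past 2-fold. Its dye term was 0.45 (limma adjusted p = 0.170). On the same 6 arrays 14 other genes had values within a root mean square difference of 0.15 of those of FANCF. As close to FANCB lay 22 other genes. A mean within 20% was held by 98 genes for FANCF and by 324 for FANCB. The cause of the close profiles was not tested.

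FANCL, the ubiquitin ligase of the same complex, lay at -1.10, -0.39 and -1.15 with hatched in Cy5 and at -0.43, -0.72 and -0.43 with early in Cy5. The mean was -0.70 ± 0.11 (limma adjusted p = 0.0149), and the gene stayed called without either array of the second pair but not without any 1 of the other 4 (highest limma adjusted p = 0.0653). FANCB, a further core subunit, had -0.46, -0.44 and -0.60 with hatched in Cy5 and -0.31, -0.37 and -0.18 with early in Cy5. Its standard error was the smallest of the 8 genes that passed, with a mean of -0.39 ± 0.05 (limma adjusted p = 0.0106, and 0.0570 when replicate 2 of early in Cy5 was left out). FANCM, the helicase that recruits the complex, was negative on all 6 arrays, from -1.16 to -0.20, and its mean of -0.60 ± 0.15 did not pass (limma adjusted p = 0.0850).

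FANCD2 and FANCI are the pair of proteins that the core complex ubiquitinates. FANCD2 lay at 0.20 ± 0.06 (limma adjusted p = 0.133). FANCI lay at -0.12 ± 0.06 on the first and -0.07 ± 0.06 on the second array set without passing. FANCC (-0.09 ± 0.11) and FANCG (0.02 ± 0.07) lay near 0.

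No gene with a RAD symbol passed in limma among the 14 of the first array set, against 4.75% of all genes. Of the 14, 5 had an unadjusted p under 0.05, against 17.1% of all genes. RAD21, a cohesin subunit, had -1.64, 0.0015 and -1.05 with hatched in Cy5 and 0.21, -1.43 and -0.58 with early in Cy5. Its mean was -0.75 ± 0.26 (limma adjusted p = 0.185), and its probes lay at -1.32 and -0.18. RAD50, of the complex that binds broken ends, had -1.42, -0.06 and -0.97 with hatched in Cy5 and 0.10, -1.21 and -0.42 with early in Cy5, with a mean of -0.66 ± 0.21 (limma adjusted p = 0.156). Both genes were near or above 0 on the second pair and negative on the other 4 arrays. RAD1, of the checkpoint clamp, lay at -0.20 ± 0.08 (limma adjusted p = 0.239).

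RAD23B, a partner of XPC in damage recognition, was positive on all 6 arrays of the first set, with a mean of 0.25 ± 0.06 that did not pass (limma adjusted p = 0.0567). Its 6 probes ran from -0.13 to 1.09, and 1 of them passed. Its 4 probes on the second array set lay between -0.23 and -0.00051, and the gene had a ratio of -0.12 ± 0.13 (limma adjusted p = 0.653). RAD18, the ligase that modifies PCNA at stalled forks, was on the second array set, at -0.38 ± 0.20 (limma adjusted p = 0.312). It had -0.78, 0.51 and -0.48 with hatched in Cy5 and 0.18, -0.93 and -0.81 with early in Cy5, so both arrays of the second pair were positive and the other 4 negative.

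RAD51AP1, which acts in homologous recombination, lay on the negative side on both array sets. On the second array set it had -0.37, -0.10 and -0.44 with hatched in Cy5 and -0.28, -0.70 and -0.57 with early in Cy5. All 6 arrays were negative, with a mean of -0.41 ± 0.08 (limma adjusted p = 0.0179). Of its 3 probes 2 passed (-0.73 and -0.42), and the third lay at -0.07. The call held only without either array of the second pair, and ended without any 1 of the other 4 (highest limma adjusted p = 0.0710). On the first array set its 1 probe had a mean of -0.63 ± 0.15 that did not pass (limma adjusted p = 0.0754), and hatched in Cy5 replicate 2 lay above 0 (0.16).

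RAD52, a mediator of recombination and of strand annealing, had ratios of 1.15, 0.48 and 0.82 with hatched in Cy5 and of 0.24, 0.71 and 0.36 with early in Cy5 on the second array set. It was positive on all 6 arrays, with a mean of 0.63 ± 0.10 (limma adjusted p = 0.00995), and stayed called on leaving out any 1 array. Both of its probes passed there, at 0.65 and 0.61. On the first array set RAD52 lay at 0.14 ± 0.09 (limma adjusted p = 0.497), with probes at 0.54, 0.01 and -0.13. The highest of these probes took its mean from 1 array, hatched in Cy5 replicate 3, with 2.41 there and at most 0.31 on the other 5.

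**Figure D4:**
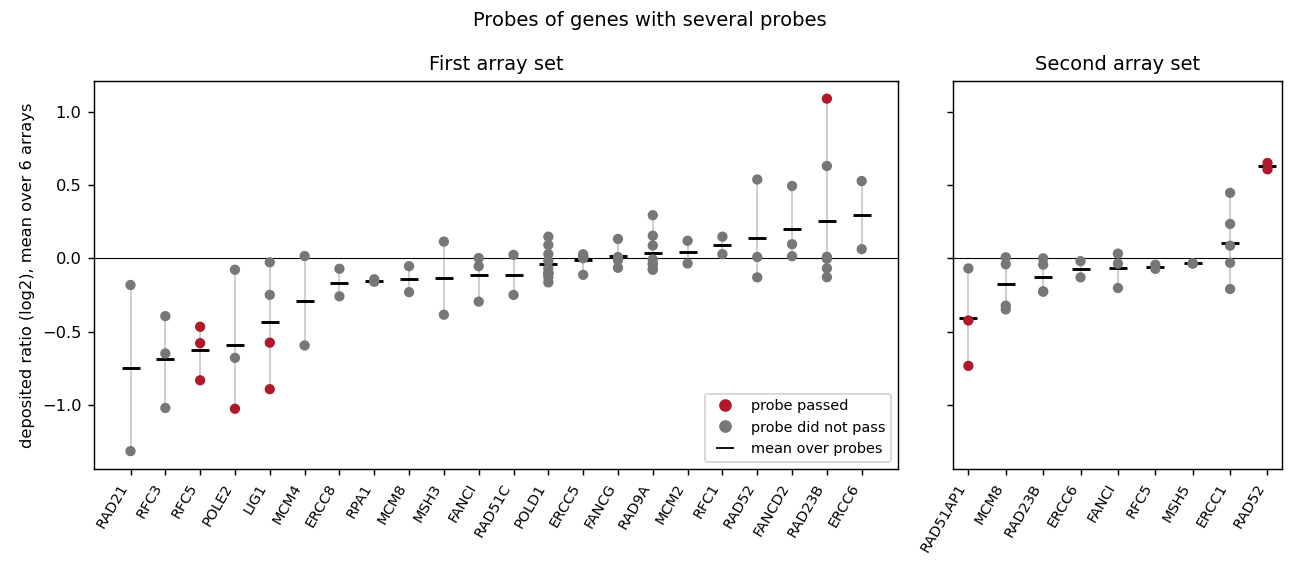
Mean log2 ratio over 6 arrays of every probe of the members with several probes, ordered by the gene's mean (black dash); red points passed a test over all probes of the array set. The 3 probes of RFC5 and the 2 of RAD52 on the second array set lie close together, while those of LIG1, POLE2, RAD21 and RAD23B on the first array set are spread widely.

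XRCC5, the larger Ku subunit, lay at -0.83, 0.05 and -0.91 with hatched in Cy5 and at -0.20, -1.08 and -1.17 with early in Cy5, with a mean of -0.69 ± 0.17 that did not pass (limma adjusted p = 0.0737). XRCC6, its partner, lay at -0.02 ± 0.09, with a 95% confidence interval from -0.22 to 0.19. The scaffold gene XRCC1, of single-strand break repair, had 1.19, -0.06 and 0.71 with hatched in Cy5 and 0.03, 1.11 and 1.11 with early in Cy5 on the first array set. On the second it had 0.96, -0.06 and 0.50 with hatched in Cy5 and 0.10, 0.93 and 0.76 with early in Cy5. The second pair lay near 0 on both sets, while the other 4 arrays lay between 0.71 and 1.19 on the first and between 0.50 and 0.96 on the second. The means were 0.68 ± 0.20 and 0.53 ± 0.15, and neither passed over 6 arrays (limma adjusted p = 0.120 and 0.0719), whereas both passed without the second pair (0.00439 and 0.00643). Leaving out that pair was chosen after the data were seen. Of all genes 9.79% then passed on the first and 17.3% on the second array set.

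No ERCC or MSH gene passed in limma on either array set, where 4.75% and 11.0% of all genes did. None had an unadjusted p under 0.05, against 17.1% and 23.7% of all genes. ERCC6, which couples repair to transcription, lay at 0.29 ± 0.19 on the first array set and at -0.08 ± 0.08 on the second. On the first, hatched in Cy5 replicate 3 was at 1.26 and the other 5 arrays between -0.22 and 0.42. The 1.26 is the mean of a probe at 2.65 on that array and a probe at -0.13. ERCC1, a subunit of a nuclease that cuts beside lesions, lay at 0.11 ± 0.08 on the second array set, and ERCC2, a helicase of TFIIH, at -0.05 ± 0.11. MSH3, which recognises loops, lay at -0.14 ± 0.12 on the first array set (limma adjusted p = 0.666), and MSH5, a meiotic homologue, at -0.04 ± 0.09 on the second. The members of the first array set without a value above, ERCC3, ERCC4, ERCC5, ERCC8, MSH4, RAD9A, RAD9B, RAD17, RAD21L1, RAD51AP2, RAD51C, RAD54L2, XRCC2, XRCC3 and XRCC4, lay between -0.17 and 0.23, and their smallest limma adjusted p was 0.313.

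**Figure D5:**
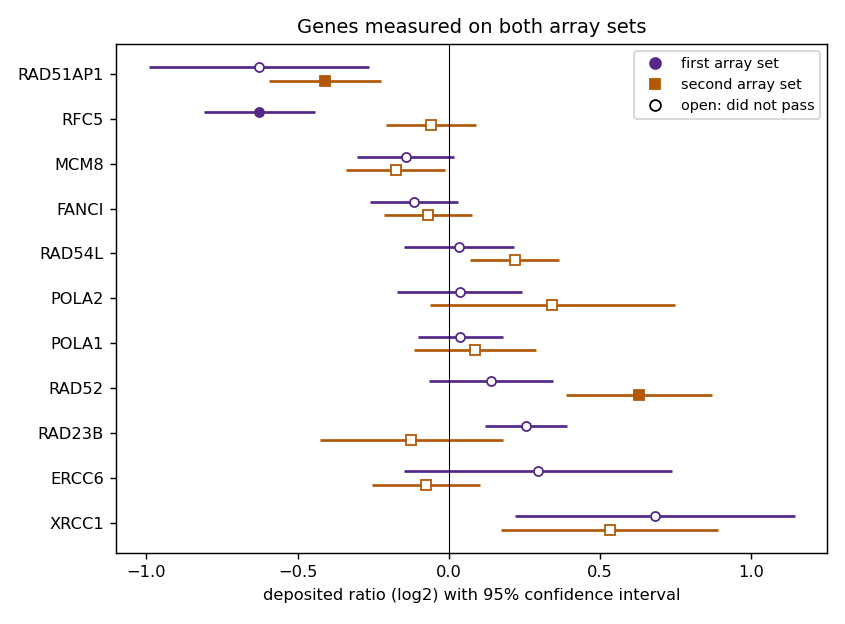
Log2 ratio with its 95% confidence interval for the 11 genes measured on both array sets, with circles for the first and squares for the second; filled symbols passed. The intervals of RAD51AP1 and XRCC1 lie on 1 side of 0 on both sets, whereas RFC5 at -0.63 on the first set lies at -0.06 on the second.

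Of the 11 genes measured on both array sets, RFC5 passed on the first, RAD51AP1 and RAD52 passed on the second, and none passed on both. The labels do not say whether the 2 array sets share RNA extracts, so values are given side by side. RFC5 was at -0.63 on the first and at -0.06 ± 0.06 on the second array set, where its confidence interval ran from -0.21 to 0.09 and its 2 probes lay at -0.07 and -0.04. RAD54L, a motor protein of recombination, lay at 0.03 ± 0.08 on the first and at 0.22 ± 0.06 on the second array set (limma adjusted p = 0.0701), where it was positive on all 6 arrays. POLA2 lay at 0.34 ± 0.17 and POLA1 at 0.09 ± 0.09 on the second array set, without passing. The 2 array sets hold different probes and their normalization is not stated, so differences between them were not tested.

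Other genes of replication and repair were read from 9 lists, of which 129 further genes were on the first and 54 on the second array set. Positive calls numbered 3 and negative calls 3 on the first array set (4.65% of the 129), with 2 of each on the second (7.41% of the 54), against 4.75% and 11.0% of all genes. None of the 26 and 8 further replication genes (such as those of the GINS complex and of origin licensing) passed, with medians of -0.12 and -0.22. Of them 8 and 2 had an unadjusted p under 0.05, against 17.1% and 23.7% of all genes. Calls came from nucleotide supply, with CDA, a cytidine deaminase (1.76 ± 0.28), and DCK, a deoxycytidine kinase (-0.40 ± 0.06), on the first array set and NME1, a nucleoside diphosphate kinase (0.59 ± 0.09), on the second. In base excision repair the glycosylase gene OGG1 lay at 1.16 ± 0.14 on the first array set, and the glycosylase gene MBD4 (-0.33 ± 0.08) and PARP2 (-0.80 ± 0.09) were negative on the second. CCNH, the cyclin of TFIIH (-0.70 ± 0.13), and UBE2A, the conjugating enzyme that works with RAD18 (-0.40 ± 0.05), were negative on the first array set.

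Of the regulators of entry into S phase, 18 and 7 were measured. E2F3 (0.58 ± 0.08) passed on the first and CDK4 (0.54 ± 0.13) on the second array set, both positive, where 2.38% and 5.27% of all genes passed. In all, 5 and 4 had an unadjusted p under 0.05 in limma, against 17.1% and 23.7% of all genes, and 9 and 2 lay below 0. The 2 on the second array set were TFDP2 (-0.70 ± 0.18, limma adjusted p = 0.0509) and CCNE1 (-0.49 ± 0.14, 0.0756). None of the checkpoint genes passed, 11 on each array set, of which 2 and 1 had an unadjusted p under 0.05. The further genes of double-strand break repair (19 and 8 measured, 1 and 4 of them with an unadjusted p under 0.05) and of mismatch repair (3 measured on the first array set, 1 of them with an unadjusted p under 0.05) did not pass either.

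Markers of other cells were read from the same ratios. Of all genes 4.75% passed on the first and 11.0% on the second array set, and 17.1% and 23.7% had an unadjusted p under 0.05 in limma. On the second array set, of 5 genes of oviduct and uterus 2 passed, UPTI (2.97 ± 0.40) and ACP5 (0.32 ± 0.06), and of 3 cumulus and granulosa genes AMH did (0.35 ± 0.08). On the first array set 0 of 6 and 0 of 4 passed, with 1 of each at an unadjusted p under 0.05. No gene of the blood or sperm lists passed or reached an unadjusted p under 0.05 on either array set. Of the trophectoderm genes 3 of 10 passed on the first array set, all positive, and 4 of 7 on the second, 2 positive and 2 negative. Of the inner cell mass genes 1 of 7 passed on the first, negative, and 3 of 7 on the second, 2 positive and 1 negative. Of the hypoblast genes 2 of 6 passed on the first, both positive, and 2 of 4 on the second, 1 on either side. Their part in the ratios of the replication and repair genes was not tested.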

How the data were processed

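Members and lists were chosen with earlier results of these data known. Per the labels' protocols, total RNA was amplified linearly with T7 RNA polymerase and labelled chemically. The authors deposited 1 log2 ratio per probe and array. The log base is taken, not stated (values of the second array set reach -12.7 and 12.2), and no source used here gives the scanner, background correction, normalization or numerator. Array medians lay between -0.0061 and 0.0105, and the values were used as deposited. Platform annotation named 18121 of 43794 probes on the first array set and 10290 of 45220 on the second, with symbols updated through RefSeq genes of Sscrofa11.1. Probes of 1 symbol were averaged per array, giving 11913 and 4531 genes. No coordinates, sequences or intensities were used.

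Each array set was fitted with limma 3.58.1 (R 4.3.3), as a stage effect plus dye orientation over 6 arrays. Tests were 2-sided, with Benjamini-Hochberg adjustment over all genes at 0.05. The fit was also run on simulated arrays with independent noise. Those runs cannot show how it behaves where residuals are correlated in pairs, as they were here. The number of arrays limits the precision. Replicate numbers follow the order of deposition and pair no arrays. By rule, the named genes were every member called or with an unadjusted p under 0.05, those on both array sets, the member furthest from 0 of each family, and called genes of the other lists. Further members were named after their values were seen, to account for all.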

Additional observations from a re-analysis of the deposited data

Results flagged for a closer look

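The median of the 55 genes on hatched in Cy5 replicate 2 of the first array set was 0.022, above 0, whereas the other 5 arrays lay between -0.14 and -0.081. The gap to the nearest other array was 0.64 of the whole range, past Dixon's critical value for 6 values. This array belongs to the second pair. In all, 47 values were checked this way, and chance sets apart about 1 in 20 of them.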

How the results depend on the processing

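With pairs of arrays as a random block, arrays centred and scaled, the median over probes or the platform's own symbols, 8 or 9 members of the first array set were called, with 2 of the second. Calls over all genes, in that order, numbered 451, 614, 494 and 568 on the first array set. On the second they numbered 373, 550, 418 and 498. Without the genes of lowest variance 9 and 3 members were called, from single probes 9 and 2, and without the dye term 8 and 4. Over all genes tested, 565 and 439 were called without the genes of lowest variance, and 511 and 519 without the dye term. Leaving out each array in turn gave 3 to 10 of the 55 members (197 to 610 of all genes) and 1 to 4 of the 17 (255 to 578). Without the second pair, chosen after seeing the data, 16 members and 1166 genes were called on the first array set and 5 and 785 on the second. With the slide as a fixed block 4 members and 249 genes were called on the first and 1 and 290 on the second, and on the slide with 4 arrays alone 1 and 243, then 1 and 210. Single probes gave 2032 and 2766 calls over all probes. On the 3 pair averages, which leave fewer values per gene, limma called 0 members on each set, and 0 and 4 genes. An unadjusted p under 0.05 in limma was held there by 15 of 55 and 5 of 17 members. The share of all genes at that threshold was not counted for this or the next alternative. Read as Cy5 over Cy3, the ratios gave 0 calls among members and 118 and 0 among all genes, with 10 and 3 members at an unadjusted p under 0.05. The stage and dye terms then change places. Among members named by rule, 22 values turned in sign, none of them passing. Other members were not counted here, and some of them turned too, such as RPA2 (0.11) on the first and RAD18 (0.14) on the second array set. On the first array set the 22 included, among genes called before, POLE2 (0.077) and POLE3 (0.17), and otherwise ERCC6 (-0.0015), FANCI (0.0082), MCM8 (0.16), MSH3 (0.026), POLA2 (-0.18), POLD4 (0.15), RAD1 (0.10), RAD51AP1 (0.21), RFC3 (0.11), RFC4 (0.069), RPA1 (0.099), XRCC1 (-0.068) and XRCC5 (0.13). The rest of the 22, on the second, were RAD51AP1 (0.11), called before, and ERCC1 (-0.24), MCM8 (0.023), MSH5 (0.27), PCNA (0.014), POLA1 (-0.086) and XRCC1 (-0.065). Of genes near 0, POLA2 ran from -0.035 to 0.10 and RAD54L from -0.022 to 0.10 on the first array set when 1 array was left out, and MSH5 from -0.091 to 0.050 on the second. RAD54L also turned with the slide as a block (-0.016) and MSH5 without the second pair (0.078). Of 759 values of the members named by rule 656 kept direction and side of the threshold, 51 lost the call, 23 gained it and 29 turned in sign. The medians of the members stayed below 0 on leaving out each array, without the second pair and with arrays centred and scaled, and were not computed under the other alternatives. The replicate numbers follow the order of deposition and were not used as a block. The residuals of arrays with the same number correlated at -0.58, -0.57 and 0.36 on the first array set and at -0.52, -0.53 and 0.56 on the second.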

Other observations

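The profile of FANCF over the 6 arrays of the first set was close to that of genes of unlike names, which were named after their values were seen. Of 11912 other genes, ZNF165 lay nearest, at a root mean square difference of 0.068 over the arrays, and OGG1 was in rank 5, at 0.096. OGG1 had log2 ratios of 1.57, 1.4 and 2.06 with hatched in Cy5 and of 0.06, 0.87 and 1.02 with early in Cy5, against 1.49, 1.28 and 2.12 and 0.12, 0.91 and 1.18 for FANCF. The 10 nearest genes each had 1 probe. Within a difference of 0.15 lay 14 genes, while 98 genes had a mean within 20% of that of FANCF. Other genes that passed also had close profiles, but more genes had a mean within 20% of theirs. That close lay 22 genes to FANCB (of 324 with such a mean), 13 to LIG1 (294) and 11 to POLE3 (318). To POLE2 lay 7 (245), to RFC5 5 (230), and to FANCL (171) and POLD3 (120) 0. A fixed limit is easier to meet for a profile of narrow range, so the counts do not rank the genes. Whether these probes share a sequence was not tested.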
